A study of Canis lupus familiaris with 10 samples.

Results

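The cathepsins and legumain, the main proteases of the lysosome, were compared between the retinas of dogs with glaucoma and of healthy dogs. The list held 10 genes (CTSB, CTSC, CTSD, CTSH, CTSK, CTSL, CTSS, CTSZ, LGMN and CST3), and its members were all probe sets whose only gene symbol in the array annotation was on the list. A probe set is a group of short probes that reads 1 transcript. No probe set carried the symbol CTSL or CST3, the gene of the secreted inhibitor cystatin C, so both genes are not analysed here under their symbols. The other 8 genes had 18 of the 42924 probe sets that were not array controls. All 18 passed the study's definition of an expressed probe set (log2 intensity over 7 on at least 2 arrays), as did 18416 probe sets in all. Of the 5 dogs with glaucoma, dog 1 (aged 5) and dog 2 (aged 14) were Shiba Inus, dog 3 (aged 5) and dog 4 (aged 7) were Basset Hounds and dog 5 (aged 9) was a Dalmatian. The 5 healthy dogs were all Beagles aged 4. Ages are in years. Each dog gave 1 eye and 1 Affymetrix canine array, and the numbers are the replicate numbers of the labels. All glaucoma dogs were clinic patients with primary glaucoma and a closed drainage angle and were given topical drugs against high eye pressure, whereas the Beagles had open angles, had no ocular findings and are listed without medication. No breed occurred in both groups and each glaucoma dog was older than the Beagles, so breed, age and medication cannot be told apart from the disease. Ages are those of the sample labels, which for 2 glaucoma dogs differ from the ages the study lists.

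Cathepsins are made as inactive precursors, carried to the lysosome by mannose 6-phosphate receptors and activated there by removal of a propeptide. Most are cysteine proteases of the papain family, cathepsin D is an aspartic protease, and legumain, which cuts after asparagine, matures several of the others. In phagocytes such as microglia they digest engulfed material and prepare peptides for MHC class II, and in the retinal pigment epithelium they digest the tips of photoreceptor outer segments. Cystatins hold the cysteine proteases in check.

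Of the 8 genes, 5 rose in glaucoma (CTSC, CTSS, CTSH, CTSZ and LGMN), 3 did not pass the test (CTSB, CTSD and CTSK) and none fell. Where a gene had several expressed probe sets, the one with the highest mean over all arrays stood for it, and the test was limma on log2 values with Benjamini-Hochberg adjustment over all 18416 expressed probe sets. Of all 7900 expressed genes, 8.04% rose and 8.65% fell by the same rule (adjusted p under 0.05). The study had selected the 5 genes that rose on these same arrays, so their direction is not independent evidence. All 5 also had a log2 difference of at least 1, a 2-fold change, which 3.27% of all genes had together with a passed test. Every glaucomatous retina lay above every healthy retina in 4 of the 8 genes, against 7.29% of all genes, and the reverse held in none of them, against 7.84% of all genes. The median log2 difference was 1.09 over the 8 genes and -0.01 over all 7900. Over probe sets, 12 of 18 rose and none fell, against 7.58% and 9.40% of all expressed probe sets. A rise of at least 2-fold was seen in 10 of the 18 (2.95% of all expressed probe sets), and the groups were fully separated with glaucoma above in 9 of the 18 (6.82%). The counts of probe sets include LGMN probe sets that counted as expressed through the glaucoma arrays alone. In bulk retina, a larger share of cells of a type and more RNA per cell cannot be told apart.

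CTSC, which encodes the dipeptidyl peptidase that activates serine proteases of immune cell granules, had the largest difference of the 8 genes. Its log2 level was 12.19, 10.60, 10.87, 11.19 and 11.92 in glaucoma dogs 1 to 5, against 8.55, 8.58, 8.33, 7.90 and 7.66 in healthy Beagles 1 to 5. All 5 glaucomatous retinas were far above the healthy ones, with a gap of 2.02 between the lowest of the glaucomatous and the highest of the healthy retinas. The mean was 11.35 ± 0.68 in glaucoma and 8.21 ± 0.41 in the healthy retinas (SD, n = 5 each), an 8.86-fold difference (log2 difference 3.15, SE 0.31, adjusted p = 0.000125 from limma). By the size of the difference CTSC was number 14 among the 7900 genes. It had a single probe set.

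CTSS encodes cathepsin S, an endopeptidase of antigen-presenting cells that cleaves the MHC class II invariant chain. Its log2 level was 12.16, 10.94, 11.21, 11.35 and 11.69 in glaucoma dogs 1 to 5, against 9.37, 9.25, 9.31, 9.01 and 8.55 in healthy Beagles 1 to 5. The groups were again separated by a wide gap of 1.57, and the mean was 11.47 ± 0.47 in glaucoma and 9.10 ± 0.33 in the healthy retinas (SD, n = 5 each). The log2 difference was 2.37 (5.17-fold, SE 0.23, adjusted p = 0.000124 from limma), and CTSS was number 34 of all genes by its size. The second probe set of CTSS had a difference of 2.78 (SE 0.30, adjusted p = 0.000202), also with no overlap, and an SD of 0.75 in glaucoma against 0.17 in the healthy retinas.

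CTSH encodes an aminopeptidase of the papain family. Its log2 level was 12.90, 11.18, 11.40, 11.71 and 12.84 in glaucoma dogs 1 to 5, against 10.04, 9.60, 9.83, 11.11 and 9.46 in healthy Beagles 1 to 5. The groups did not overlap, but the gap was only 0.07, because healthy Beagle 4 lay close to the older Shiba Inu. The mean was 12.01 ± 0.81 in glaucoma and 10.01 ± 0.65 in the healthy retinas (SD, n = 5 each), a log2 difference of 2.0 (3.99-fold, SE 0.40, adjusted p = 0.0072 from limma). The second probe set gave 1.92 (SE 0.35, adjusted p = 0.00436).

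**Figure D1:**
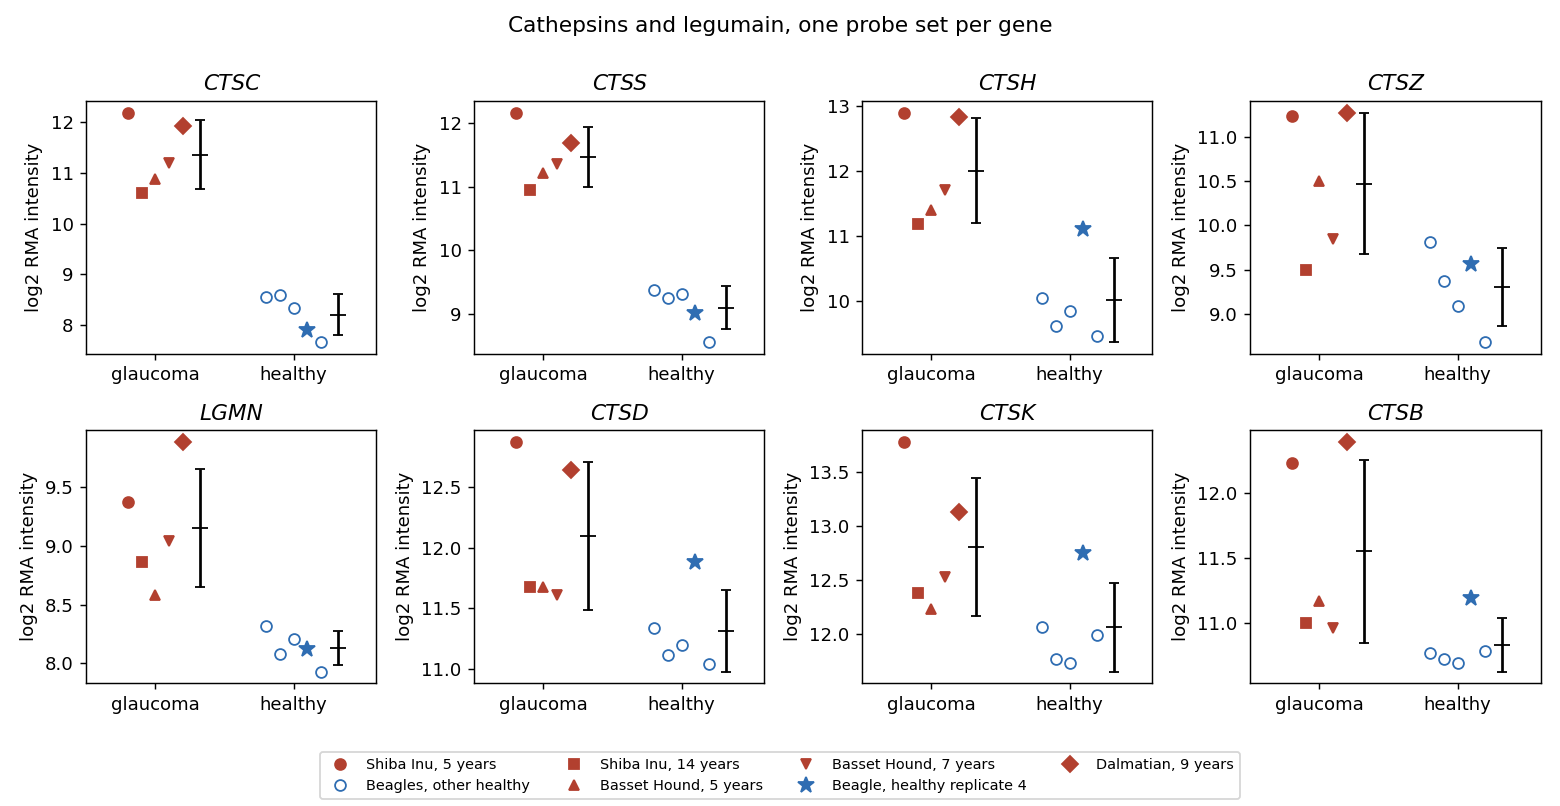
Log2 RMA intensity of the 8 protease genes, 1 probe set per gene, with glaucomatous retinas left and healthy retinas right in each panel. Each point is 1 dog and the bars give the mean and SD of 5 dogs; the groups are wide apart in CTSC and CTSS, whereas in CTSD, CTSK and CTSB the younger Shiba Inu and the Dalmatian stand above the other glaucoma dogs and healthy Beagle 4 above the other Beagles.

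CTSZ, which encodes the carboxypeptidase cathepsin Z (also called X), and LGMN rose by about 2-fold. The log2 level of CTSZ was 11.23, 9.50, 10.5, 9.85 and 11.27 in glaucoma dogs 1 to 5, against 9.81, 9.38, 9.09, 9.56 and 8.68 in healthy Beagles 1 to 5. Glaucoma dog 2, the older Shiba Inu, lay within the healthy range and dog 4, the older Basset Hound, just above it. The difference was 1.17 (10.47 ± 0.80 in glaucoma, 9.31 ± 0.44 in the healthy retinas, SD, n = 5 each, SE 0.36, adjusted p = 0.0456 from limma), close to the threshold. Leaving out 1 dog at a time ended this call in 7 of 10 cases: the younger Shiba Inu (adjusted p = 0.0743), the younger Basset Hound (0.0656), the Dalmatian (0.107) or Beagle 2 (0.0887), 3 (0.09), 4 (0.0686) or 5 (0.109). The second probe set of CTSZ rose by 1.38 (SE 0.31, adjusted p = 0.012) with no overlap between the groups, and passed the test in each of these 10 cases (adjusted p = 0.00388 to 0.0326).

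LGMN, with 5 probe sets, encodes legumain. Its log2 level was 9.37, 8.86, 8.58, 9.04 and 9.88 in glaucoma dogs 1 to 5, against 8.32, 8.08, 8.21, 8.12 and 7.93 in healthy Beagles 1 to 5. All 5 glaucomatous retinas lay above the healthy ones, which stayed within 0.39 of each other. The mean was 9.15 ± 0.50 in glaucoma and 8.13 ± 0.15 in the healthy retinas (SD, n = 5 each), a log2 difference of 1.01 (2.02-fold, SE 0.21, adjusted p = 0.00864 from limma). Over its 5 probe sets the differences were 0.62 to 1.02, and 4 of them passed. The probe set with the smallest difference did not (0.62, SE 0.20, adjusted p = 0.0536), and on it the 5-year-old Basset Hound, with 8.18, lay inside the healthy range of 7.70 to 8.29. Among those that passed, the probe sets with differences of 0.89 (healthy 6.64 to 6.99) and 1.02 (healthy 6.52 to 6.82) had no healthy retina over 7. They counted as expressed through the glaucoma arrays alone. With age in the model the probe set that represents LGMN had a difference of 1.0 and missed the threshold (adjusted p = 0.0526).

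**Figure D2:**
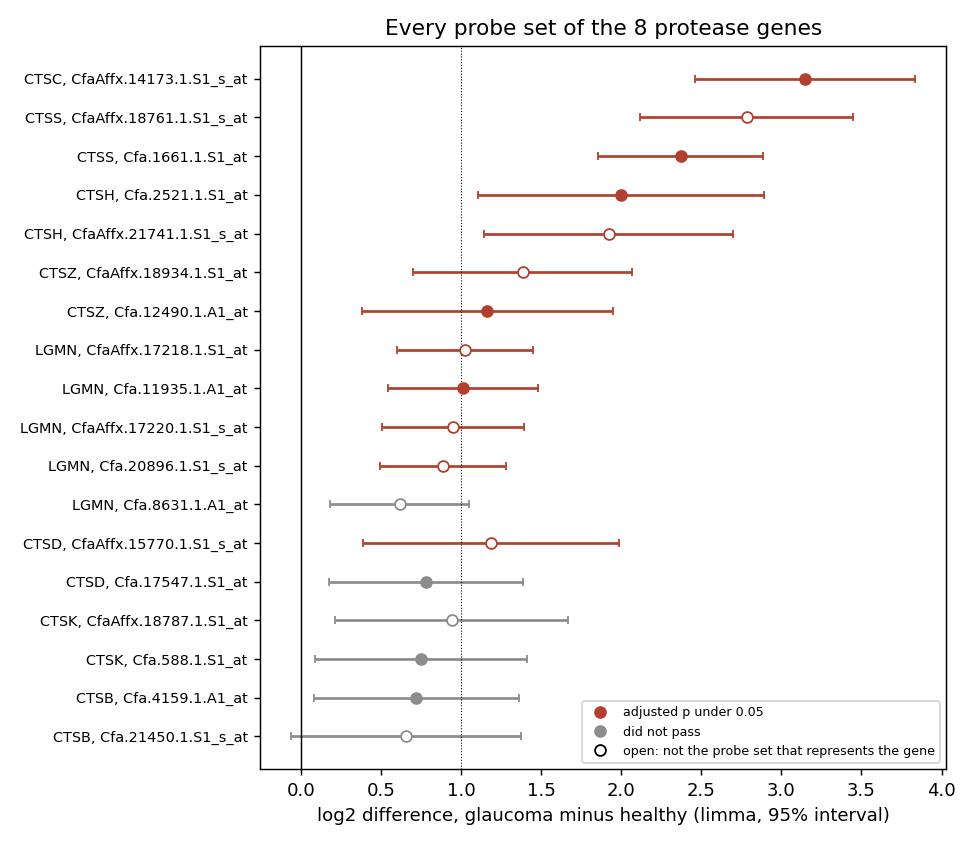
Log2 difference, glaucoma minus healthy, of all 18 probe sets with the 95% interval from limma; red probe sets passed at an adjusted p under 0.05, grey ones did not, filled points mark the probe set that represents the gene, and the dotted line marks a 2-fold change. All differences lie above 0, and those of CTSC, CTSS and CTSH are largest.

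CTSB, CTSD and CTSK had higher means in glaucoma but did not pass the test. CTSB, which encodes cathepsin B, an endopeptidase found in most cells, had log2 levels of 12.23, 11.0, 11.17, 10.96 and 12.40 in glaucoma dogs 1 to 5, against 10.77, 10.72, 10.69, 11.19 and 10.78 in healthy Beagles 1 to 5. The younger Shiba Inu and the Dalmatian were the only retinas above the healthy range, and none lay below it. The difference was 0.72 (95% interval 0.08 to 1.36, adjusted p = 0.112 from limma), with an SD of 0.70 in glaucoma and 0.21 in the healthy retinas. The intervals given here are those of single probe sets, without adjustment for the number tested. The second probe set of CTSB had a difference of 0.66 (95% interval -0.06 to 1.37, adjusted p = 0.188).

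CTSD encodes cathepsin D, which in pigment epithelium helps to degrade rhodopsin. Its log2 level was 12.87, 11.68, 11.68, 11.61 and 12.64 in glaucoma dogs 1 to 5, against 11.34, 11.11, 11.19, 11.88 and 11.05 in healthy Beagles 1 to 5. Beagle 4 lay above 3 of the glaucomatous retinas. The probe set that represents CTSD had a difference of 0.78 (95% interval 0.17 to 1.39, adjusted p = 0.0758 from limma). The second one had 1.19 (95% interval 0.39 to 1.99, adjusted p = 0.0458) and passed, but leaving out any 1 dog except glaucoma dog 3 ended its call (adjusted p = 0.0518 to 0.106, and 0.00687 without dog 3). The call for CTSD thus depends on the probe set. Without both Basset Hounds CTSD (1.08, adjusted p = 0.0308) and CTSB (1.05, adjusted p = 0.038) passed on the probe sets that represent them.

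CTSK, best known as the collagen-degrading protease of bone-resorbing osteoclasts, had log2 levels of 13.78, 12.38, 12.23, 12.53 and 13.13 in glaucoma dogs 1 to 5, against 12.06, 11.76, 11.73, 12.74 and 11.99 in healthy Beagles 1 to 5. Again the younger Shiba Inu and the Dalmatian were high, and Beagle 4 lay above the other 3 glaucoma dogs. The difference was 0.75 (95% interval 0.09 to 1.41, adjusted p = 0.111 from limma), and that of the second probe set 0.94 (95% interval 0.22 to 1.67, adjusted p = 0.0742). In the RefSeq annotation of a German Shepherd genome, CTSK is the direct neighbour of CTSS, with 0 protein-coding genes between them.

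CTSL, a ubiquitous endopeptidase, had no probe set under its symbol. The symbol LOC403708, which RefSeq lists as a pseudogene with CTSL among its synonyms, had 2 expressed probe sets that the rule does not include. They differed by 0.23 (95% interval -0.13 to 0.59, adjusted p = 0.365) and 0.34 (95% interval 0.14 to 0.53, adjusted p = 0.0258). The second passed the test, but not without glaucoma dog 5 (adjusted p = 0.065) or without Beagle 1 (0.0553), 2 (0.0685), 3 (0.0508) or 5 (0.0616). Which transcript these probes read was not tested.

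The dogs differed in how far the proteases rose. In all 8 genes the 2 highest glaucomatous retinas were those of the younger Shiba Inu and the Dalmatian, as in 16 of the 18 probe sets. Relative to the healthy mean, the median over the 8 genes was 1.82 in the younger Shiba Inu and 1.86 in the Dalmatian, 0.55 in the older Shiba Inu, 0.82 in the younger Basset Hound and 0.73 in the older one. In the healthy Beagles it was -0.41 to 0.31. The median SD of the 8 genes was 0.66 in glaucoma and 0.37 in the healthy retinas, compared to 0.26 in glaucoma and 0.18 in the healthy retinas over all genes. Among the 258 genes that rose at least 2-fold the median SD in glaucoma was 0.59, close to that of the 8 genes. Among the healthy retinas, Beagle 4 was the highest in CTSB, CTSD, CTSH and CTSK, with 1.10 above the healthy mean for CTSH, but it lay below the healthy mean for CTSC (-0.30), CTSS (-0.09) and LGMN (-0.01).

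Marker genes of other cells were compared dog by dog with this order. A listed gene is called measured if it had a probe set that was expressed by the study's definition. The counts of markers compare with 8.04% of all genes that rose and 8.65% that fell. Of 13 measured microglia and macrophage markers (of 18 listed), 12 rose, and their median difference from the healthy mean was 2.47 in the younger Shiba Inu, 2.45 in the Dalmatian and 1.5 to 2.05 in the other glaucoma dogs, compared to -0.20 to 0.15 in the healthy Beagles. Their summed intensity was 8868 to 20673 in glaucoma and 2273 to 3274 in the healthy retinas. The complement gene C1QC (3.44) and the receptor gene CSF1R (3.26) had the largest differences among them, and P2RY12, a marker of resting microglia, did not pass (-0.37, adjusted p = 0.516). The defining marker CSF1R averaged 9.64 in glaucoma and 6.38 in the healthy retinas on the log2 scale, and AIF1 averaged 8.62 in glaucoma and 7.28 in the healthy retinas. No healthy retina was over 7 for CSF1R (6.10 to 6.66), CD68 (6.19 to 6.79) or CD163 (4.28 to 5.06). These markers were thus measured through the glaucoma arrays alone. For ITGB2 only Beagle 4 (7.05) and for TREM2 only Beagle 1 (7.22) was over 7 among the healthy retinas. Both thus reached the minimum of 2 arrays only with the glaucoma arrays. ITGAM (0.13), FCER1G (0.64) and PTPRC had probe sets that were not expressed, and are not in the count. The part of these cells in the protease differences was not tested.

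Pigment epithelium and melanocyte markers (12 of 13 measured) set apart the younger Shiba Inu, with a median of 2.83 above the healthy mean, and healthy Beagle 4, with 2.01. The other glaucoma dogs lay between -0.38 and 0.59 and the other Beagles between -0.56 and -0.28. Their summed intensity was 9596 to 58141 in glaucoma and 5764 to 38786 in the healthy retinas, so the groups overlapped. The single pigment epithelium genes RPE65 and TTR were high in more glaucoma dogs than the median shows, but others were not. RPE65, the isomerase of the visual cycle, had log2 levels of 13.37, 10.27, 8.77, 11.51 and 11.95 in glaucoma dogs 1 to 5, against 7.07, 8.57, 6.46, 13.02 and 6.38 in healthy Beagles 1 to 5. The transthyretin gene TTR was at 11.38 to 14.48 in glaucoma, against 14.20 in Beagle 4 and 9.32 to 11.13 in the other Beagles. Neither passed the test (RPE65 2.87, adjusted p = 0.139, and TTR 2.67, adjusted p = 0.0687). RGR and TYRP1 had lower means in glaucoma (-0.25 and -0.40) and did not pass either. On RGR, glaucoma dogs 2 to 4 (10.06 to 10.25) lay below every Beagle (10.46 to 11.67). Of the 12 markers 1 rose (SERPINF1, 0.91, adjusted p = 0.00787), which is 8.33%, near the 8.04% of all genes. Without glaucoma dog 1 and Beagle 4, 5 of the 8 genes rose, with CTSK among them (0.68, adjusted p = 0.0435) and CTSZ no longer (1.04, adjusted p = 0.0968). The share of all genes that rose in this fit was not computed. With the pigment marker level as a covariate CTSD (0.57, adjusted p = 0.0426) and CTSK (0.50, adjusted p = 0.0351) passed the test and CTSZ did not (1.0, adjusted p = 0.0614).

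Of 11 measured rod and cone markers (of 12 listed), 1 fell and none rose. The share that fell, 9.09%, was near the 8.65% of all genes. Their median difference from the healthy mean was -3.56 in the younger Shiba Inu and -1.20 in the Dalmatian, -0.13 to -0.06 in the other glaucoma dogs and -0.29 to 0.15 in the healthy Beagles, and their summed intensity was 8804 to 75823 in glaucoma and 68964 to 87776 in the healthy retinas. The median does not show the cone genes, which were also low in glaucoma dog 4, the older Basset Hound. The blue cone opsin gene OPN1SW, the marker that fell (-3.00, SE 0.77, adjusted p = 0.0223), had log2 levels of 6.65, 9.34, 10.03, 6.01 and 5.85 in glaucoma dogs 1 to 5, against 9.88 to 10.89 in the healthy Beagles. The cone arrestin gene ARR3 was at 9.06, 12.71, 12.63, 9.76 and 7.58 in glaucoma dogs 1 to 5, against 12.72 to 13.13 in the healthy Beagles, and did not pass (adjusted p = 0.0711). The cone markers OPN1SW, ARR3, GNAT2 and PDE6H were lowest in dogs 1, 4 and 5. Dog 2 also lay below every healthy Beagle on each of them, and dog 3 on ARR3 and PDE6H. The proteases were highest in dogs 1 and 5. The rod arrestin gene SAG had a log2 level of 10.55 in the younger Shiba Inu and 13.33 to 14.09 in the other glaucoma dogs, against 13.82 to 14.25 in the healthy Beagles. Without dogs 1 and 5 the differences were 2.68 for CTSC, 2.07 for CTSS, 1.42 for CTSH and 0.69 for LGMN, all past the test (adjusted p from limma 0.000119 for CTSC, 0.000176 for CTSS, 0.019 for CTSH and 0.00814 for LGMN). None of the others passed, with 0.64 for CTSZ (adjusted p = 0.167), 0.34 for CTSD (0.254), 0.32 for CTSK (0.38) and 0.21 for CTSB (0.344). This fit rests on 3 glaucoma dogs, and was chosen after the marker levels were seen. The part of pigment epithelium, rods and cones in the protease differences was not tested further.

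Other marker lists were also compared, again beside 8.04% of all genes that rose and 8.65% that fell. Fibroblast and sclera markers (4 of 8 measured, 1 rose) had a median of 1.83 above the healthy mean in the younger Shiba Inu, 1.07 in the Dalmatian and 0.10 to 0.77 in the other glaucoma dogs, compared to -0.41 to 0.34 in the healthy Beagles. By this median their 2 highest glaucomatous retinas were those with the highest proteases. COL1A2 and FBLN1 followed this order, but PDGFRA, the marker that rose, did not. PDGFRA was at 8.03, 8.12, 8.50, 8.36 and 9.01 in glaucoma dogs 1 to 5, so the younger Shiba Inu was its lowest glaucomatous retina. OGN was at 7.38 in dog 4, above the Dalmatian (6.78). The listed fibroblast markers that were not expressed did not all go this way. DCN had a difference of -1.10, with every glaucomatous retina below every healthy one, and LUM had -1.37 and -0.63 on its probe sets. COL1A1 and COL3A1 had differences of both signs. Müller glia and astrocyte markers (9 of 10 measured, 3 rose) had a median of 0.64 in the younger Shiba Inu, 0.40 in the Dalmatian and 0.15 to 0.30 in the other glaucoma dogs, compared to -0.08 to 0.11 in the healthy Beagles. The markers that rose, GFAP, AQP4 and CLU, did not follow this order. In the Dalmatian GFAP was at 7.36, below dogs 2 (8.77) and 4 (8.49). AQP4 was at 7.97 in the Dalmatian, below dogs 3 (8.88) and 4 (8.44), and CLU at 14.58, below dog 4 (14.60). No healthy retina was over 7 for GFAP or AQP4, so both were measured through the glaucoma arrays alone. Endothelium and pericyte markers (4 of 8 measured, 2 rose) lay at 0.10 to 0.76 in glaucoma and -0.13 to 0.07 in the healthy retinas, and lymphocyte markers (3 of 10 measured, 2 rose) at 0.24 to 0.77 in glaucoma and -0.12 to 0.10 in the healthy retinas. The lymphocyte markers that rose were CD2 (6.18 to 6.68 in the healthy retinas) and CD3E (6.47 to 6.76). Both were measured through the glaucoma arrays alone, as was PDGFRB (6.21 to 6.73), which also rose. The listed pericyte marker RGS5, which was not expressed, went the other way. Its probe sets had differences of -1.04, -0.79 and -0.40, the last with every glaucomatous retina below every healthy one. PECAM1, CDH5 and TEK, also not expressed, had differences of -0.04 to 0.22. CD3D, CD3G, CD8A, CD79A, CD79B and MS4A1 had probe sets, but these were not expressed. Of 9 measured ganglion cell markers 6 fell and 1 rose. The one that rose, SNCG, was discordant, with a difference of 2.52 on the probe set that represents it and -2.57 on its other expressed probe set (adjusted p = 0.000232 on the second). Of 9 neutrophil and erythroid markers, 5 had a probe set and 0 of these were expressed, while the other 4 had no probe set. The part of these cells in the protease differences was not tested.

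**Figure D3:**
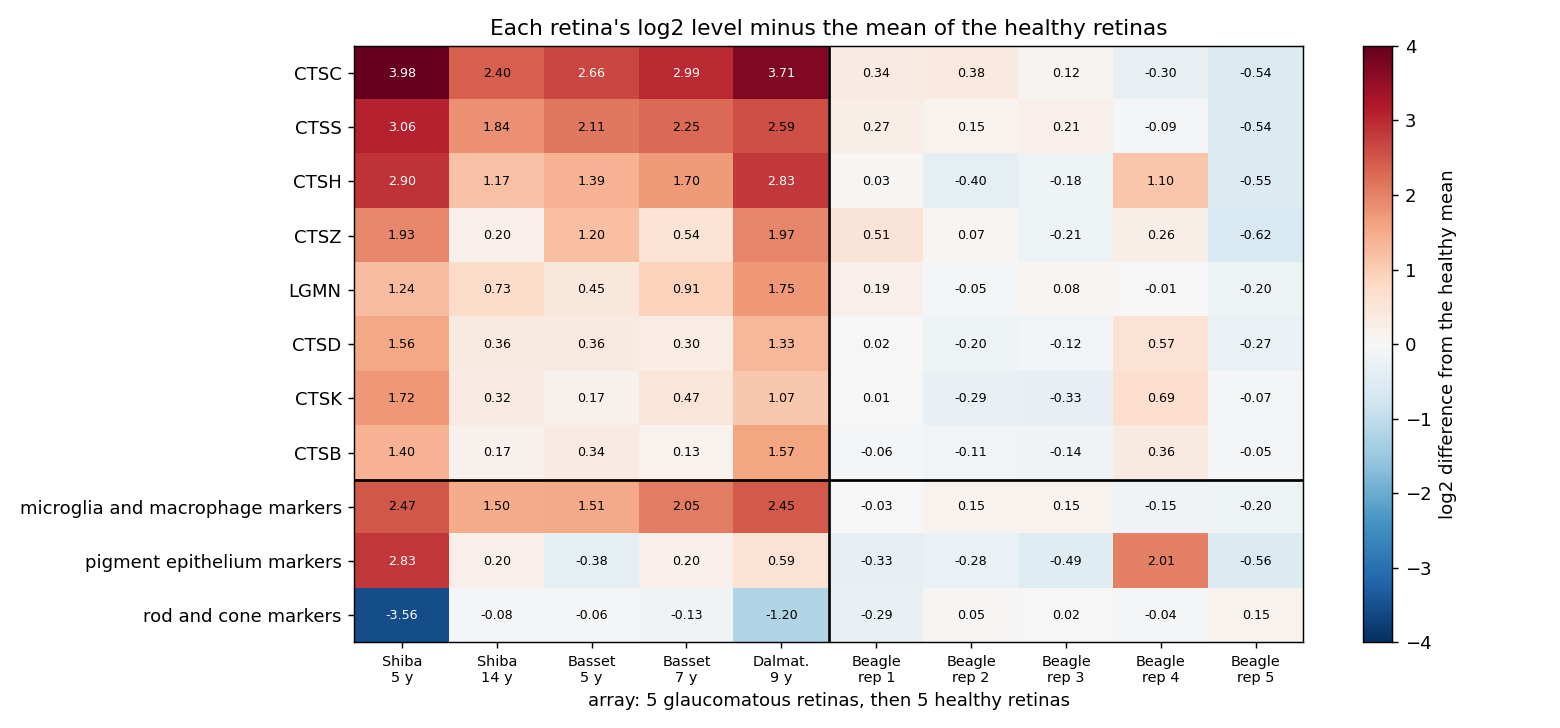
Log2 level of each retina minus the mean of the 5 healthy retinas, for the 8 protease genes and, below the line, for the median of 3 marker lists; columns are the 5 glaucomatous and then the 5 healthy retinas. The younger Shiba Inu and the Dalmatian have the highest protease values, and healthy Beagle 4 is high in CTSH, CTSK, CTSD and in pigment epithelium markers but not in CTSC or CTSS.

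The 8 genes fell into different patterns across the 10 arrays. Likeness was measured as the root-mean-square distance between log2 profiles, each centred on its own mean. CTSB, CTSD and CTSK lay closest together, with a distance of 0.16 between CTSD and either CTSB or CTSK, while the largest distance was 1.29, between CTSK and CTSC. The genes nearest to CTSC were DLA-DRA (0.27), CD74 (0.28) and HLA-DRB1 (0.28), genes of MHC class II molecules and their invariant chain. Those nearest to CTSS were LCP1 (0.21), an actin-bundling protein of leukocytes, the immunoglobulin receptor gene FCGR1A (0.22) and SAMD9L (0.23). For these 6 genes the log2 differences between the groups were 2.27 to 2.80. The distances compare with a median of 1.67 from CTSC and 1.27 from CTSS to all genes. They are descriptions over 10 arrays that share the group difference, so genes with a like difference come out near each other.

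For the other genes, CTSD was nearest to ELOVL1 (0.16), CTSB and CTSK. CTSK was nearest to GAMT (0.12), ELOVL1 (0.15) and CSPG5 (0.15), and CTSB to CTSD, the cytokine gene IL34 (0.18) and SLC25A1 (0.19). CTSH was nearest to TRIB1 (0.35), COL12A1 (0.35) and GPX3 (0.38), CTSZ to PDLIM4 (0.23), the acid nuclease gene DNASE2 (0.25) and WWC1 (0.26), and LGMN to TAGLN2 (0.12), FAM20C (0.14) and DUSP16 (0.14).

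Other genes of the pathway were taken from 5 lists, in which 11 of 45 measured genes rose and 2 fell, against 8.04% and 8.65% of all genes. None of the other cathepsins measured rose. CTSF, a cysteine cathepsin with 4 expressed probe sets, had a difference of -0.07 (95% interval -0.42 to 0.28, adjusted p = 0.804 from limma), and CTSA, a serine carboxypeptidase of the lysosome, 0.34 (adjusted p = 0.142). PIGK, a relative of legumain in the enzyme that attaches GPI anchors, fell (-0.63, SE 0.18, adjusted p = 0.0399), but its second probe set did not pass (-0.23, adjusted p = 0.27), and the call was lost without glaucoma dog 3 or 5 or without Beagle 1, 2, 3 or 5 (adjusted p up to 0.0925). CTSE, CTSG, CTSO and CTSW lay below the minimum for expressed probe sets. Of 3 measured genes in this list, 0 rose and 1 fell, and the median was -0.07.

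Among inhibitors, 3 of 7 measured genes rose and none fell (median 0.44). CSTB encodes cystatin B, the inhibitor of cysteine cathepsins inside the cell. Its log2 level was 12.92, 12.43, 12.07, 12.78 and 13.36 in glaucoma dogs 1 to 5, against 11.61, 11.21, 11.52, 11.59 and 10.98 in healthy Beagles 1 to 5. The groups did not overlap, and the difference was 1.33 (SE 0.23, adjusted p = 0.00302 from limma) and 1.39 on its second probe set (adjusted p = 0.00432). The other genes that rose encode serine protease inhibitors, SERPINA3 (2.14, SE 0.24, adjusted p = 0.000235) and SERPINB6 (0.64, SE 0.19, adjusted p = 0.0379). The call for SERPINB6 was lost without glaucoma dog 1, 3 or 5 or Beagle 1, 2, 3 or 4 (adjusted p up to 0.0937), while both of its other expressed probe sets passed (0.73 and 0.51). RARRES1, a latexin-like gene, had the largest difference that did not pass (-0.65, adjusted p = 0.342). The cystatin genes CST6, CST7, CST8, CST11 and CSTA were not expressed by the study's definition.

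The receptors that carry the proteases to the lysosome did not pass the test. M6PR differed by 0.17 (adjusted p = 0.333 from limma) and by 0.51 on its second probe set (adjusted p = 0.0765), IGF2R by -0.10 (adjusted p = 0.603), and GNPTAB, a subunit gene of the enzyme that makes the mannose 6-phosphate tag, by 0.22 (adjusted p = 0.498). In the sorting list 3 of 16 measured genes rose and none fell (median 0.06). They were AP3B1, a subunit of the adaptor AP-3 (1.0, SE 0.14, adjusted p = 0.0008), GGA2, an adaptor of the mannose 6-phosphate receptors (0.70, SE 0.13, adjusted p = 0.00454), and the endocytic receptor gene LRP1 (0.62, SE 0.16, adjusted p = 0.0225), whose call was lost without Beagle 2 (adjusted p = 0.0643). The adaptor subunit gene AP1G1 had the largest difference that did not pass (-0.63, adjusted p = 0.153). For PSAP and GNPTG the call depended on the probe set. PSAP did not pass on the probe set that represents it (0.57, adjusted p = 0.066) but rose on another (0.93, adjusted p = 0.0254). GNPTG did not pass on the probe set that represents it (0.01, adjusted p = 0.96) but fell on another (-0.47, adjusted p = 0.0453).

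Of 10 measured substrates and partners 3 rose and none fell (median 0.39). CD74, the invariant chain that cathepsin S cleaves, rose by 2.80 (SE 0.27, adjusted p = 0.000121 from limma), with 10.95 to 12.32 in glaucoma and 8.44 to 9.07 in the healthy retinas. IFI30, a thiol reductase that opens disulfide bonds of antigens in the lysosome, rose by 1.5 (SE 0.29, adjusted p = 0.00552) and S100A10, the partner of annexin A2, by 0.69 (SE 0.17, adjusted p = 0.0198). Of the 5 expressed probe sets of S100A10 only 2 passed, and its call was lost without glaucoma dog 5 or Beagle 5 (adjusted p up to 0.0511). The gelatinase gene MMP9 had the largest difference that did not pass (-0.80, adjusted p = 0.194). Among 9 measured regulators of lysosomal and immune genes 2 rose and 1 fell (median 0.23). TFEC, a relative of TFEB found in macrophages, rose by 1.98 (SE 0.31, adjusted p = 0.0016) and STAT3 by 1.27 (SE 0.14, adjusted p = 0.000202), while MLX fell (-0.48, SE 0.11, adjusted p = 0.012; 2 of its 3 probe sets passed). For TFEC no healthy retina was over 7 (5.25 to 5.96), so it was measured through the glaucoma arrays alone. MITF, which is active in pigment cells, had a difference of 1.16 that did not pass (adjusted p = 0.0804), although 1 of its other expressed probe sets did (0.66, adjusted p = 0.0421). On that MITF probe set, too, no healthy retina was over 7 (6.13 to 6.57).

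**Figure D4:**
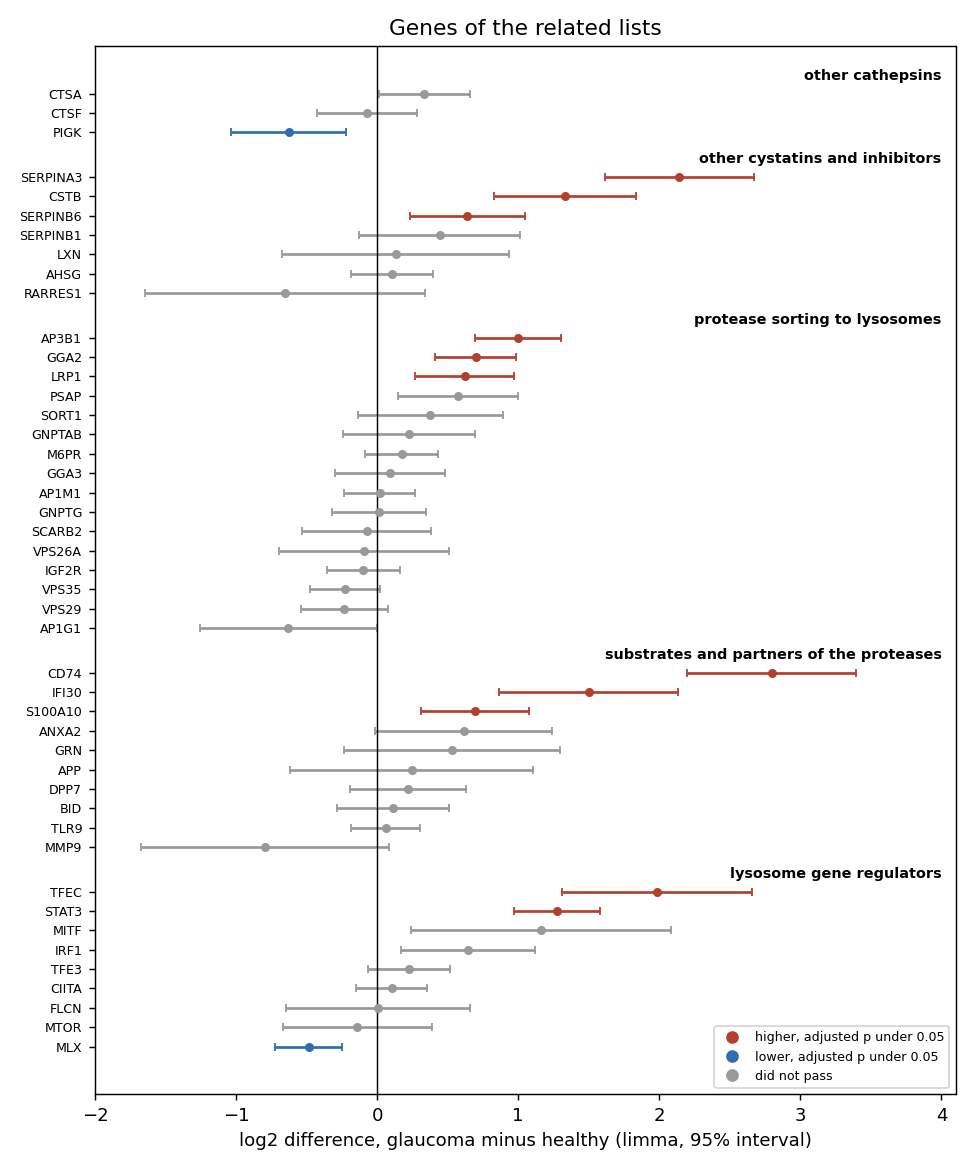
Log2 difference, glaucoma minus healthy, with the 95% interval from limma, for the measured genes of 5 related lists; red genes rose, blue genes fell and grey genes did not pass at an adjusted p under 0.05. CD74, SERPINA3 and TFEC have the largest increases, and most genes of protease sorting lie near 0.

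The number of arrays, not a read depth, limits the precision of these values. The arrays were alike in median intensity (77.1 to 80.7) and in the number of probe sets above the minimum (15910 to 16315). The log2 ratio between the 3' and 5' ends of actin and GAPDH, a measure of RNA breakdown, was 1.86 ± 0.19 in glaucoma and 1.94 ± 0.25 in the healthy retinas (SD, n = 5 each).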

How the data were processed

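Neural retina was profiled on Affymetrix Canine genome 2.0 arrays, 1 array per dog. RMA was the authors' normalization (background correction, quantile normalization and a summary per probe set; the software version is not given in the sources used here), and the deposited intensity values are on a linear scale. Their log2 values were used here. RMA gives all arrays the same overall distribution, so a change shared by most transcripts would not be seen.

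Control probe sets (111) were left out, and probe sets over 7 on the log2 scale on at least 2 arrays were tested with limma 3.58.1 in R 4.3.3, adjusted by Benjamini-Hochberg over all of them and called at an adjusted p under 0.05. Of the 42924 probe sets, 29254 had 1 gene symbol in the array annotation, 439 several and 13231 none, and the Entrez ID of 27680 matched the RefSeq table of the assembly UU_Cfam_GSD_1.0, used only for names and neighbours. The expressed probe set with the highest mean stood for a gene. Members and lists were chosen with earlier results of these data known. Named genes are all members, list genes by adjusted p with the largest that did not pass, and the 3 genes nearest to each member. The planned comparison of the proteases with CST3 was not made, since no probe set carried that symbol. CTSL and CST3 are not analysed here. Alternatives were other filters, normalizations, variance models, the exact Wilcoxon test of the methods, covariates, omitted dogs and other probe set choices. The fit was tested on simulated data. Same-numbered samples did not deviate together, so replicate numbers were not taken as pairs. The significance analysis of microarrays (SAM) that the methods also name was not run. In the 3' to 5' ratio, control probe sets with _s and _x suffixes were accepted too.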

Additional observations from a re-analysis of the deposited data

Results flagged for a closer look

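In 36 groups of 5 retinas (18 probe sets in 2 groups), 3 held a retina far from the others. Chance flags about 1 in 20 such groups. A probe set of LGMN had its lowest glaucoma value in the 5-year-old Basset Hound, with a log2 level of 7.02 and the next at 7.77, a gap of 0.766 of the group's range. Healthy Beagle 4 was high on the probe set that represents CTSB (11.19, the next Beagle at 10.78, a gap of 0.815 of the range). It was also high on the second probe set of CTSH (9.23, the next at 8.35, 0.739 of the range). This Beagle had the highest pigment epithelium marker level of the healthy group, and the part of those cells in both values was not tested.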

How the results depend on the processing

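Each result was recomputed under 28 alternatives, 2 of them (both on rod and cone markers) chosen after the marker levels were seen. All log2 differences kept their direction. CTSC, CTSS and CTSH passed the test under all 28 (CTSC 2.68 to 3.49, CTSS 2.04 to 2.78, CTSH 1.42 to 2.33), with the unadjusted p in the case of the exact Wilcoxon test, whose smallest Benjamini-Hochberg p was 0.0534. LGMN passed under 27, all but age as a covariate, and CTSZ under 14. CTSD passed under 4, CTSK under 2 and CTSB under 1. In all these counts the exact Wilcoxon test was taken at an unadjusted p under 0.05, which 26.28% of all expressed probe sets had. Over all alternatives 4 to 7 of the 8 genes rose, with 7 without the Basset Hounds. The share of all genes that rose was not computed under the alternatives. A change in these counts thus cannot be told apart from a change in the calls over all genes. The count of genes higher at least 2-fold was 3 instead of 5 with array weights, with the 3' to 5' ratio, the pigment marker level or the rod and cone marker level as a covariate, and without both libraries high in pigment markers or both lowest in the median of rod and cone markers. Leaving out 1 dog gave 3 to 5, with 3 without the younger Shiba Inu, the Dalmatian or Beagle 5. The count of genes that rose was 4 to 5 and of probe sets that rose 10 to 13 when 1 dog was left out. In the related lists 2 genes fell. This count was 1 without a filter, with another quantile normalization, with equal medians, with age, the 3' to 5' ratio or the rod and cone marker level as a covariate and without both libraries low in rod and cone markers, and 1 to 2 when 1 dog was left out (1 without the Dalmatian or Beagle 1, 2, 3 or 5). The causes were not tested. Same-numbered samples correlated at r = -0.24 to 0.07 in their deviations from the group means, so the samples share only a number. With the replicate block CTSZ did not pass (adjusted p = 0.0751) and 0 genes of the related lists fell. The number of arrays limits the precision.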
